A study of Mus musculus with 9 samples.

Results

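The genes described here encode 9 chemokines, the small secreted or membrane-bound proteins that direct the movement of white blood cells. They are Cxcl1, Cxcl2, Cxcl10, Cxcl12, Cxcl16, Cx3cl1, Ccl2, Ccl7 and Ccl28, chosen by name among the 56923 mouse genes counted. RNA was sequenced from kidneys of wild-type mice in 3 groups of 3 libraries. Mice labelled sham had surgery but no IR injury (IR usually stands for ischemia-reperfusion) and, by their treatment label, PBS. Mice labelled AKI_PBS had acute kidney injury and received PBS, and mice labelled AKI_PTPi_mEVs had acute kidney injury and received PTPi@mEVs, extracellular vesicles from milk that carry PTP1B siRNA. There was no group with empty vesicles or with a control siRNA, so vesicle and siRNA cannot be told apart. The labels give no strain, age, sex or time after injury, and do not say whether each library is a different animal. The p-values then measure only the spread between these libraries, which may be technical. The comparisons address what the injury, and the vesicles given to injured mice, go with in the kidney.

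Chemokines act by binding receptors with 7 membrane-spanning segments on leukocytes and other cells, and many are held on heparan sulfate at the cell surface. Cxcl1 and Cxcl2 attract neutrophils through Cxcr2, Cxcl10 attracts activated T cells and natural killer cells through Cxcr3, and Ccl2 and Ccl7 attract monocytes through Ccr2. Cxcl16 and Cx3cl1 are made as transmembrane proteins whose receptors are Cxcr6 and Cx3cr1, and can be shed by the proteases Adam10 and Adam17. Cxcl12 keeps cells that carry Cxcr4 in place and is also taken up by Ackr3, and Ccl28, a chemokine of mucosal epithelia, binds Ccr10 and Ccr3. In injured kidneys, tubule cells, endothelium and infiltrating leukocytes are all known sources of chemokines.

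In RefSeq, promoters of 6 of the 9 genes were found (Cxcl1, Cxcl2, Cxcl10, Cxcl12, Cx3cl1 and Ccl28), on build GRCm38.p6. The 250 bases before the start are printed for the 3 genes among them that were higher in injured kidneys and for Ccl28, the gene with the largest fall. Capitals mark matches to the NF-kB consensus and, in Cxcl10 only, the match to a core of interferon-response elements, 2 copies of GAAA with any 2 bases between them. Both motifs were searched on both strands. The windows lie at chr5:90890995-90891244 (plus strand) for Cxcl1, chr5:90903649-90903898 (plus strand) for Cxcl2, chr5:92348890-92349139 (minus strand) for Cxcl10 and chr13:119623569-119623818 (plus strand) for Ccl28.
Cxcl1: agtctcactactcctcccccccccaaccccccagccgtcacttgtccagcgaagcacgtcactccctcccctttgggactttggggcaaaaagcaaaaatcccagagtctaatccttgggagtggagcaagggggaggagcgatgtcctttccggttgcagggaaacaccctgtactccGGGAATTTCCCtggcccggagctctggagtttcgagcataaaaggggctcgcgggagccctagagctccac
Cxcl2: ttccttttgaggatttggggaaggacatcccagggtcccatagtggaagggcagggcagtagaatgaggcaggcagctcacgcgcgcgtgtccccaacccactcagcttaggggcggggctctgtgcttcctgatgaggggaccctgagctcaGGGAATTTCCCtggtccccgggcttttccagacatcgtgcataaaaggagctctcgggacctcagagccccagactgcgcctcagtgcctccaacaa
Cxcl10: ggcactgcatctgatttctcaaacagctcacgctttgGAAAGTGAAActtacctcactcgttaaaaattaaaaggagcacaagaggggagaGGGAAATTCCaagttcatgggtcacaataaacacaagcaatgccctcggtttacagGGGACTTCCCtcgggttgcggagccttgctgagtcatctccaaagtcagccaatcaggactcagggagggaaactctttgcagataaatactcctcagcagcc
Ccl28: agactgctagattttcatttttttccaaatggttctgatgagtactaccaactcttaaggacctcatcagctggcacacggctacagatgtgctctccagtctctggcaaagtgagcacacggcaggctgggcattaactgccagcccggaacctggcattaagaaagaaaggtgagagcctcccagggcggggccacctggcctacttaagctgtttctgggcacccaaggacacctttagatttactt
Cxcl1 and Cxcl2, which are neighbours in the RefSeq gene order, carry the same marked run of letters, which matches the NF-kB consensus on both strands with a shift of 1 base. It begins 71 bases before the start in Cxcl1 and 97 bases before it in Cxcl2. Cxcl10 has an NF-kB match beginning 159 bases before its start and another beginning 103 bases before it, and its paired GAAA match begins 213 bases before the start. Neither motif occurs in the windows of Cxcl12, Cx3cl1 and Ccl28. Over all 32817 promoter windows of this length, 3.9% hold the NF-kB consensus and 2.97% hold the paired GAAA. A match describes letters only.

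Library totals ran from 9467851 to 11389479 counts. Below, CPM means counts scaled to a common total by its total and its TMM factor, and a call means an adjusted p under 0.05 in edgeR's quasi-likelihood test over 17036 genes. Ptpn1, the target of the siRNA, stood at 80.9, 90.5 and 98.8 CPM in sham, 123, 148 and 170 in AKI_PBS and 106, 106 and 94.0 in AKI_PTPi_mEVs, with a log2 fold change of -0.53 between the injured groups (edgeR adjusted p = 0.0086). Markers of tubule segments and podocytes were all above 0 in all 9 libraries, as the kidney label says. AKI_PBS replicate 3 stood apart on principal component 3 (6.27% of the variance), at -44.1 against 28.3 and 20.6 in the other AKI_PBS libraries and between -15.6 and 15.0 in the other 6. The summed level of Malat1 and Neat1, nuclear RNAs often read as a sign of RNA quality, was 6604 to 10186 CPM in AKI_PBS, 3177 to 3540 in sham and 3226 to 3480 in AKI_PTPi_mEVs. Its part in the results below was not tested.

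Injured kidneys given PBS had more transcript of the neutrophil chemokines Cxcl1 and Cxcl2, of Cxcl10 and of Ccl2 than sham kidneys, and less of Cxcl12 and Ccl28. Thus 4 of the 9 genes were called higher and 2 lower, while Cxcl16, Cx3cl1 and Ccl7 were not called. Over all genes tested, 55.7% were called in this comparison, 27.8% higher and 27.9% lower, so a share of 6 in 9 lies near that background. Log2 fold changes of the called members ran from -5.23 in Ccl28 to 6.41 in Cxcl2. In 6 of the 9 genes the libraries of the groups did not overlap, beside 62.1% of all genes. The median log2 fold change was 0.51 over the 9 genes and 0.03 over all genes. All 9 genes passed the filter on low counts, and only Ccl7 needed its highest group to pass.

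Against AKI_PBS kidneys, kidneys of the AKI_PTPi_mEVs group had less Cxcl2 and Ccl2 and more Cxcl12, Cxcl16, Cx3cl1 and Ccl28. Called were 4 genes higher and 2 lower, beside 51.1% of all genes called (25.4% higher and 25.8% lower). Groups did not overlap in 6 of the 9 genes, beside 57.9% of all genes. Without the third AKI_PBS library, 4 were called higher and 1 lower. Against sham kidneys, the AKI_PTPi_mEVs group had more Cxcl2, Cxcl10, Cxcl16 and Cx3cl1, and 0 of the 9 genes were called lower. There 13.2% of all genes were called, 7.43% higher and 5.79% lower, and groups did not overlap in 6 of the 9 genes and in 39.2% of all genes. The median log2 fold changes of the 9 genes were 0.54 and 0.76 in these comparisons, and those of all genes -0.03 and -0.01. The 3 comparisons share libraries, so their values are set side by side and are not independent of each other.

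**Figure D1:**
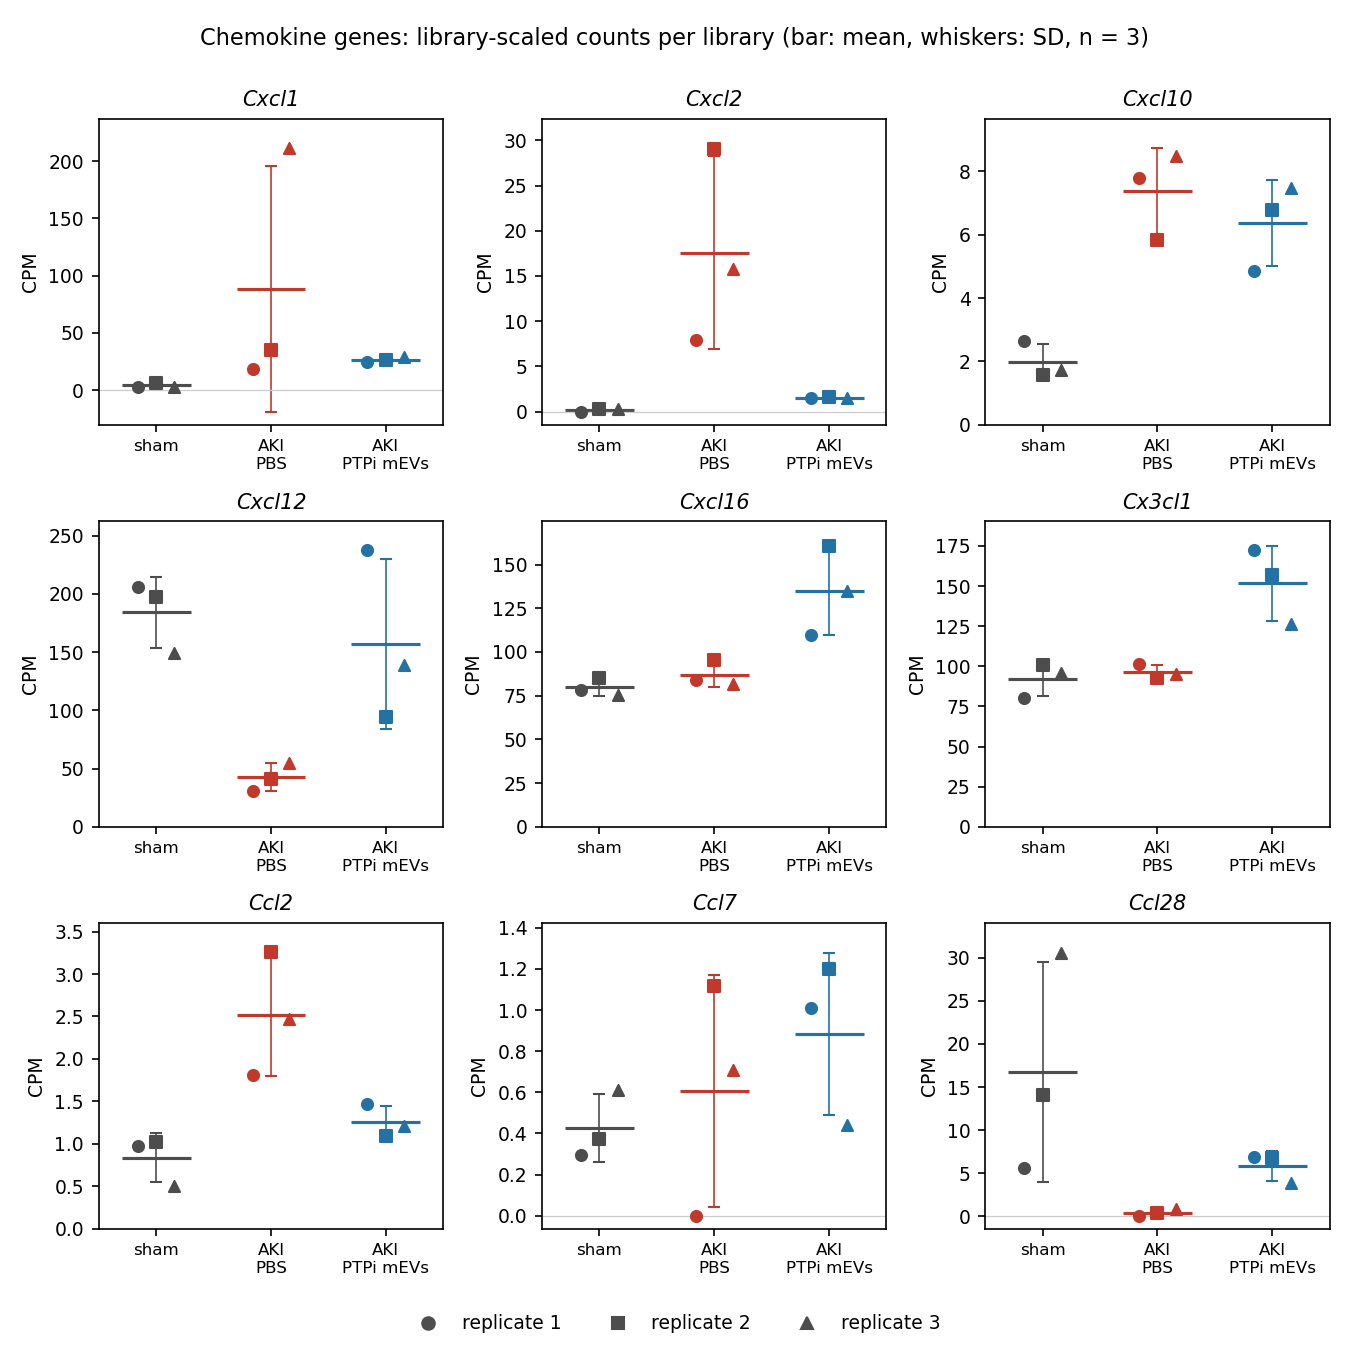
Level of each of the 9 chemokine genes in CPM (y axis, a separate linear scale for each gene) in sham, AKI_PBS and AKI_PTPi_mEVs libraries (x axis). Points are libraries, the bar is the mean and the whiskers are the SD of 3 libraries. Cxcl2 is highest in all 3 AKI_PBS libraries (7.87 to 29.1 CPM), Cxcl12 and Ccl28 are lowest there, and the high mean of Cxcl1 in AKI_PBS comes with 1 library at 212 CPM.

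**Figure D2:**
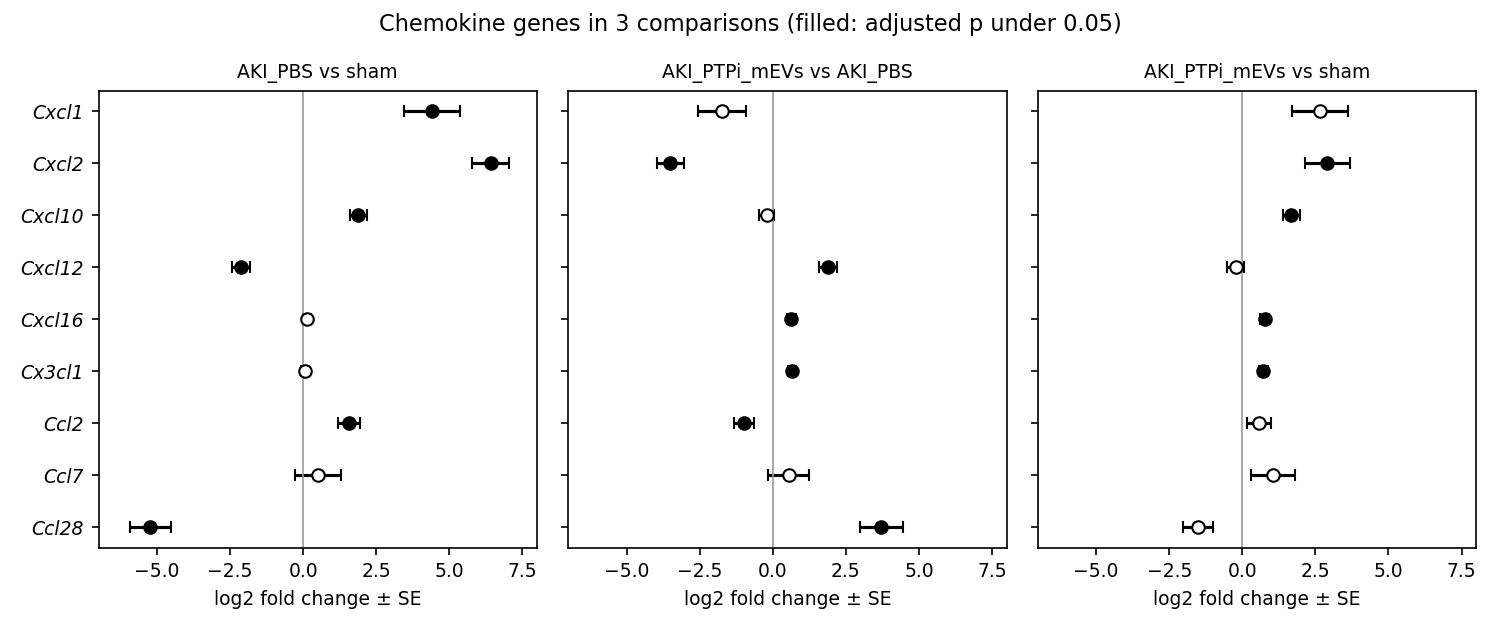
Log2 fold change of each chemokine gene (x axis, whiskers are the SE of the fit) in the 3 comparisons, with filled points where the adjusted p of edgeR was under 0.05. Cxcl2 has the largest rise in AKI_PBS against sham (6.41) and Ccl28 the largest fall (-5.23), while Cxcl16 and Cx3cl1 are filled only in the comparisons that include AKI_PTPi_mEVs.

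The neutrophil chemokine Cxcl2 (ENSMUSG00000058427.11) was almost undetected in sham kidneys, with raw counts of 0, 3 and 3. The AKI_PBS libraries held 91, 339 and 179 counts, and the AKI_PTPi_mEVs libraries 16, 15 and 14. The 3 groups did not overlap, with AKI_PTPi_mEVs between sham and AKI_PBS. Mean levels were 0.195 ± 0.169 CPM in sham, 17.6 ± 10.7 in AKI_PBS and 1.55 ± 0.085 in AKI_PTPi_mEVs (SD, n = 3 libraries each). Cxcl2 rose in AKI_PBS against sham by a log2 fold change of 6.41 ± 0.63 (SE, edgeR adjusted p = 4.7e-06). Pooled over libraries this was 609 against 6 counts, a scaled ratio of 90.5 with a 95% exact counting interval from 41.3 to 248. Such intervals cover counting error only. Cxcl2 was 11.3-fold lower in AKI_PTPi_mEVs than in AKI_PBS (log2 fold change -3.50 ± 0.47, edgeR adjusted p = 7.4e-05). It was still 7.54-fold higher than in sham (log2 fold change 2.91 ± 0.78, edgeR adjusted p = 0.028). That last call was lost when any 1 of the sham or AKI_PTPi_mEVs libraries was left out (adjusted p from 0.055 to 0.099), and with limma voom (adjusted p = 0.085).

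Cxcl1 (ENSMUSG00000029380.12), the other neutrophil chemokine of the set, measured 3.14, 6.51 and 2.84 CPM in sham kidneys. It measured 18.2, 35.3 and 212 CPM in AKI_PBS and 24.6, 26.2 and 28.9 CPM in AKI_PTPi_mEVs. All libraries of injured kidneys lay above all sham libraries, but the injured groups overlapped, and 1 AKI_PBS library stood far above the rest. The means were 4.16 ± 2.04, 88.5 ± 107 and 26.6 ± 2.18 CPM (SD, n = 3 libraries each). Cxcl1 rose in AKI_PBS against sham by a log2 fold change of 4.40 ± 0.96 (edgeR adjusted p = 0.0052), and by 2.67 without the third AKI_PBS library. Between AKI_PTPi_mEVs and AKI_PBS the log2 fold change was -1.74 ± 0.82 and not called (edgeR adjusted p = 0.11). It was -0.0086 without the third AKI_PBS library (adjusted p = 0.98), and -2.21 without the first, where it was called (adjusted p = 0.014). Against sham, Cxcl1 in AKI_PTPi_mEVs had a log2 fold change of 2.66 ± 0.95, which was not called (edgeR adjusted p = 0.11) although the groups did not overlap. The third AKI_PBS library enters this comparison only through the filter, the TMM factors and the shared estimate of spread. Without that library the same difference was called (2.66, edgeR adjusted p = 0.00039). It was also called without the first AKI_PBS library (adjusted p = 0.029), in a fit of only the groups compared (0.00066) and by DESeq2 (0.023).

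Markers of neutrophils moved with Cxcl2. The 9 listed markers (S100a8, S100a9, Retnlg, Mmp8, Ngp, Camp, Ltf, Csf3r and Ly6g) summed to 1.12 to 2.25 CPM in sham, 12.9 to 26.9 in AKI_PBS and 1.65 to 2.75 in AKI_PTPi_mEVs. Between 5 and 6 of them were at 0 in a sham library, 0 or 1 in an AKI_PBS library and 3 or 4 in an AKI_PTPi_mEVs library. Their part in the chemokine values was not tested, and in bulk tissue more cells of a type and more RNA per cell cannot be told apart. Among the other ligands of Cxcr2, Cxcl5 had counts of 2, 1 and 0 in sham, 12, 60 and 18 in AKI_PBS and 16, 21 and 4 in AKI_PTPi_mEVs. Its rise from sham to AKI_PBS was called (log2 fold change 4.58 ± 0.95, edgeR adjusted p = 0.0013), at 3.60 without the second AKI_PBS library and 5.42 without the first sham library. Cxcl5 passed the filter on low counts only through AKI_PBS, so this call is not independent support for a rise there. Cxcl3, named after its values were seen, did not pass the filter and had counts of 0, 0 and 0, then 8, 25 and 4, then 0, 1 and 0.

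Cxcl10 (ENSMUSG00000034855.14), a gene induced by interferons and by NF-kB, was higher in both injured groups than in sham. Its levels were 2.65, 1.58 and 1.73 CPM in sham, 7.78, 5.83 and 8.48 in AKI_PBS and 4.86, 6.77 and 7.47 in AKI_PTPi_mEVs. The injured groups overlapped with each other and lay wholly above sham. Cxcl10 was 3.70-fold higher in AKI_PBS than in sham (a log2 difference of 1.89 ± 0.29, edgeR adjusted p = 0.00015) and 3.19-fold higher in AKI_PTPi_mEVs than in sham (1.67 ± 0.30, adjusted p = 0.0036). Between the injured groups the log2 fold change was -0.21 ± 0.26 and not called (edgeR adjusted p = 0.52). The pooled counts of 183 and 254 gave a scaled ratio of 0.854 with a counting interval from 0.702 to 1.04. Thus Cxcl2 was called lower in AKI_PTPi_mEVs than in AKI_PBS and Cxcl10 was not, and whether these 2 changes differ was not tested. In GENCODE, 5.91% of the exon bases of Cxcl10 overlap Art3 on the opposite strand. Art3 counts were 75, 62 and 60, then 70, 50 and 113, then 26, 11 and 20. Reads in the overlap cannot be told apart, because the strand setting of the counting is not given in the sources used here.

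Markers of T cells and natural killer cells, which Cxcl10 is known to attract, were lower where Cxcl10 was higher. The 9 listed markers summed to 5.08 to 7.35 CPM in sham, 1.12 to 1.33 in AKI_PBS and 1.86 to 3.21 in AKI_PTPi_mEVs. These sums rest on few counts, 13, 13 and 15 in the AKI_PBS libraries, and only 1 of the 9 markers passed the filter. The relation of these markers to the Cxcl10 values was not tested. The other interferon-induced ligands of Cxcr3, Cxcl9 and Cxcl11, named after their values were seen, were under the filter. Cxcl9 had counts of 9, 11 and 7 in sham, 1, 0 and 1 in AKI_PBS and 3, 0 and 2 in AKI_PTPi_mEVs, and Cxcl11 never exceeded 7 counts.

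Ccl2 (ENSMUSG00000035385.6), a monocyte chemokine, was low in every library. Raw counts were 10, 11 and 5 in sham, 21, 38 and 28 in AKI_PBS and 16, 10 and 11 in AKI_PTPi_mEVs. Mean levels were 0.837 ± 0.286, 2.52 ± 0.723 and 1.26 ± 0.193 CPM (SD, n = 3 libraries each), and AKI_PBS lay above both other groups without overlap. Ccl2 was 2.96-fold higher in AKI_PBS than in sham (log2 fold change 1.57 ± 0.37, edgeR adjusted p = 0.0031). It was 1.98-fold lower in AKI_PTPi_mEVs than in AKI_PBS (log2 fold change -0.99 ± 0.35, edgeR adjusted p = 0.032). The latter call was lost without the second or the third AKI_PBS library or any AKI_PTPi_mEVs library (adjusted p from 0.050055 to 0.129), with no low-count filter (0.078) and with DESeq2 (0.064). Against sham, the AKI_PTPi_mEVs value of 0.58 ± 0.41 was not called (edgeR adjusted p = 0.38).

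Ccl7 (ENSMUSG00000035373.3), the neighbour of Ccl2 in the gene order and a ligand of the same receptor, gave no call in any comparison. Its counts were 3, 4 and 6 in sham, 0, 13 and 8 in AKI_PBS and 11, 11 and 4 in AKI_PTPi_mEVs, and all 3 groups overlapped. A difference was not detectable at this depth: the pooled ratio of AKI_PBS to sham was 1.44 with a counting interval from 0.688 to 3.13. The edgeR log2 fold changes were 0.51 ± 0.79 in AKI_PBS against sham (adjusted p = 0.60), 0.54 ± 0.70 in AKI_PTPi_mEVs against AKI_PBS (0.54) and 1.05 ± 0.76 in AKI_PTPi_mEVs against sham (0.40). Monocyte markers summed to 10.9 to 14.4 CPM in sham and 22.4 to 25.1 in AKI_PBS. In AKI_PTPi_mEVs the median was 16.7 and the highest 26.0 CPM, so 1 library lay above all AKI_PBS libraries and the others below them. The markers also differed by gene. Of the 6 listed 3 passed the filter, with 2 called higher and 0 lower in AKI_PBS against sham. Between the injured groups 1 was called higher and 2 lower, and 0 higher without the third AKI_PBS library. Over all genes 55.7% and 51.1% were called. The part of these markers in the Ccl2 and Ccl7 values was not tested.

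The transmembrane chemokines Cxcl16 and Cx3cl1 shared a pattern of calls that none of the soluble ones had: no call between sham and AKI_PBS, and higher levels in AKI_PTPi_mEVs than in both. Cxcl16 (ENSMUSG00000018920.12) measured 78.4, 85.3 and 75.4 CPM in sham, 84.0, 95.2 and 81.7 in AKI_PBS and 110, 161 and 135 in AKI_PTPi_mEVs. Cx3cl1 (ENSMUSG00000031778.14), also called fractalkine, measured 80.2, 101 and 95.7 CPM in sham, 101, 92.9 and 95.0 in AKI_PBS and 172, 157 and 126 in AKI_PTPi_mEVs. For both genes every AKI_PTPi_mEVs library lay above every other library, while sham and AKI_PBS overlapped. Cxcl16 was 1.55-fold higher in AKI_PTPi_mEVs than in AKI_PBS (log2 fold change 0.63 ± 0.15, edgeR adjusted p = 0.0034) and 1.69-fold higher than in sham (0.76 ± 0.15, adjusted p = 0.0066). Cx3cl1 was 1.57-fold higher than in AKI_PBS (0.65 ± 0.14, edgeR adjusted p = 0.0023) and 1.64-fold higher than in sham (0.72 ± 0.15, adjusted p = 0.0075). In AKI_PBS against sham their log2 fold changes were 0.13 ± 0.15 and 0.06 ± 0.14 (edgeR adjusted p = 0.49 and 0.73). The calls of both genes held with each library left out in turn and under every alternative tried on the fit, apart from a required log2 fold change of at least 1, which neither reaches.

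Part of Cxcl16 shares its position with another gene. In GENCODE, 18.3% of its exon bases (552 of 3021) overlap Zmynd15 on the opposite strand. Zmynd15 counts were 70, 112 and 72 in sham, 38, 34 and 42 in AKI_PBS and 109, 75 and 90 in AKI_PTPi_mEVs, beside 742 to 1472 counts of Cxcl16. Cx3cl1 has no such overlap in GENCODE. In the gene order Cx3cl1 stands between Ccl22 and Ccl17, which had at most 6 and 9 counts in any library.

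Cxcl12 (ENSMUSG00000061353.12), which retains Cxcr4-bearing cells and is made by stromal and endothelial cells, was lower in AKI_PBS than in both other groups. It measured 206, 197 and 149 CPM in sham, 31.1, 41.2 and 55.1 in AKI_PBS and 237, 94.5 and 139 in AKI_PTPi_mEVs. The AKI_PBS libraries lay below all others, and sham and AKI_PTPi_mEVs overlapped. Cxcl12 was 4.34-fold lower in AKI_PBS than in sham (a log2 difference of -2.12 ± 0.31, edgeR adjusted p = 0.00011) and 3.70-fold higher in AKI_PTPi_mEVs than in AKI_PBS (1.89 ± 0.30, adjusted p = 0.00032). Between AKI_PTPi_mEVs and sham the log2 fold change was -0.23 ± 0.29 (edgeR adjusted p = 0.66), and 0.02 without the second AKI_PTPi_mEVs library. The spread within AKI_PTPi_mEVs was wide, at 157 ± 73.1 CPM (SD, n = 3 libraries).

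Summed markers of the cells known to make Cxcl12 overlapped between the groups. The 8 stromal markers summed to 369 to 480 CPM in sham, 357 to 453 in AKI_PBS and 267 to 591 in AKI_PTPi_mEVs. The 8 endothelial markers summed to 435 to 566, 345 to 600 and 334 to 541 CPM in the same order. Single markers did change. Of the endothelial markers 2 were called higher and 2 lower in AKI_PBS against sham, and 0 higher and 3 lower between the injured groups. Of the stromal markers 1 was called higher and 0 lower, then 2 higher and 2 lower. Over all genes 55.7% and 51.1% were called. Some of these marker counts changed with 1 library left out. The first AKI_PTPi_mEVs library was highest of its group in both lists and in Cxcl12, and the part of this in its Cxcl12 value was not tested.

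Ccl28 (ENSMUSG00000074715.4), a chemokine of mucosal epithelia, had the largest fall in AKI_PBS among the 9 genes. Raw counts were 57, 151 and 301 in sham, 1, 5 and 9 in AKI_PBS and 75, 62 and 35 in AKI_PTPi_mEVs. AKI_PBS lay below both other groups, which overlapped, and the sham libraries themselves spread from 5.59 to 30.6 CPM. Mean levels were 16.7 ± 12.7, 0.437 ± 0.354 and 5.83 ± 1.72 CPM (SD, n = 3 libraries each). Ccl28 was 37.4-fold lower in AKI_PBS than in sham (log2 fold change -5.23 ± 0.70, edgeR adjusted p = 7.4e-05). The log2 fold change was -4.47 without the third sham library and -5.95 without the third AKI_PBS library. Ccl28 was 13.1-fold higher in AKI_PTPi_mEVs than in AKI_PBS (3.71 ± 0.73, edgeR adjusted p = 0.0013), and the log2 fold change was 4.44 without the third AKI_PBS library. Against sham, the AKI_PTPi_mEVs value of -1.51 ± 0.52 was not called (edgeR adjusted p = 0.076). It was called without the first sham library (-1.92, adjusted p = 0.020) and with no low-count filter (-1.50, 0.018), and it was -0.74 without the third sham library.

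Markers of some tubule segments moved with Ccl28. The 7 proximal tubule markers summed to 9527 to 11743 CPM in sham, 3316 to 5558 in AKI_PBS and 6592 to 9829 in AKI_PTPi_mEVs. Collecting duct markers summed to 1924 to 2625, 769 to 1716 and 2066 to 2208 CPM, and loop of Henle markers to 2035 to 2350, 1012 to 1553 and 1599 to 1984 CPM. Distal convoluted tubule markers did not share this order, at 434 to 506 CPM in sham, 340 to 613 in AKI_PBS and 309 to 369 in AKI_PTPi_mEVs. The part of tubule markers in the Ccl28 values was not tested.

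**Figure D3:**
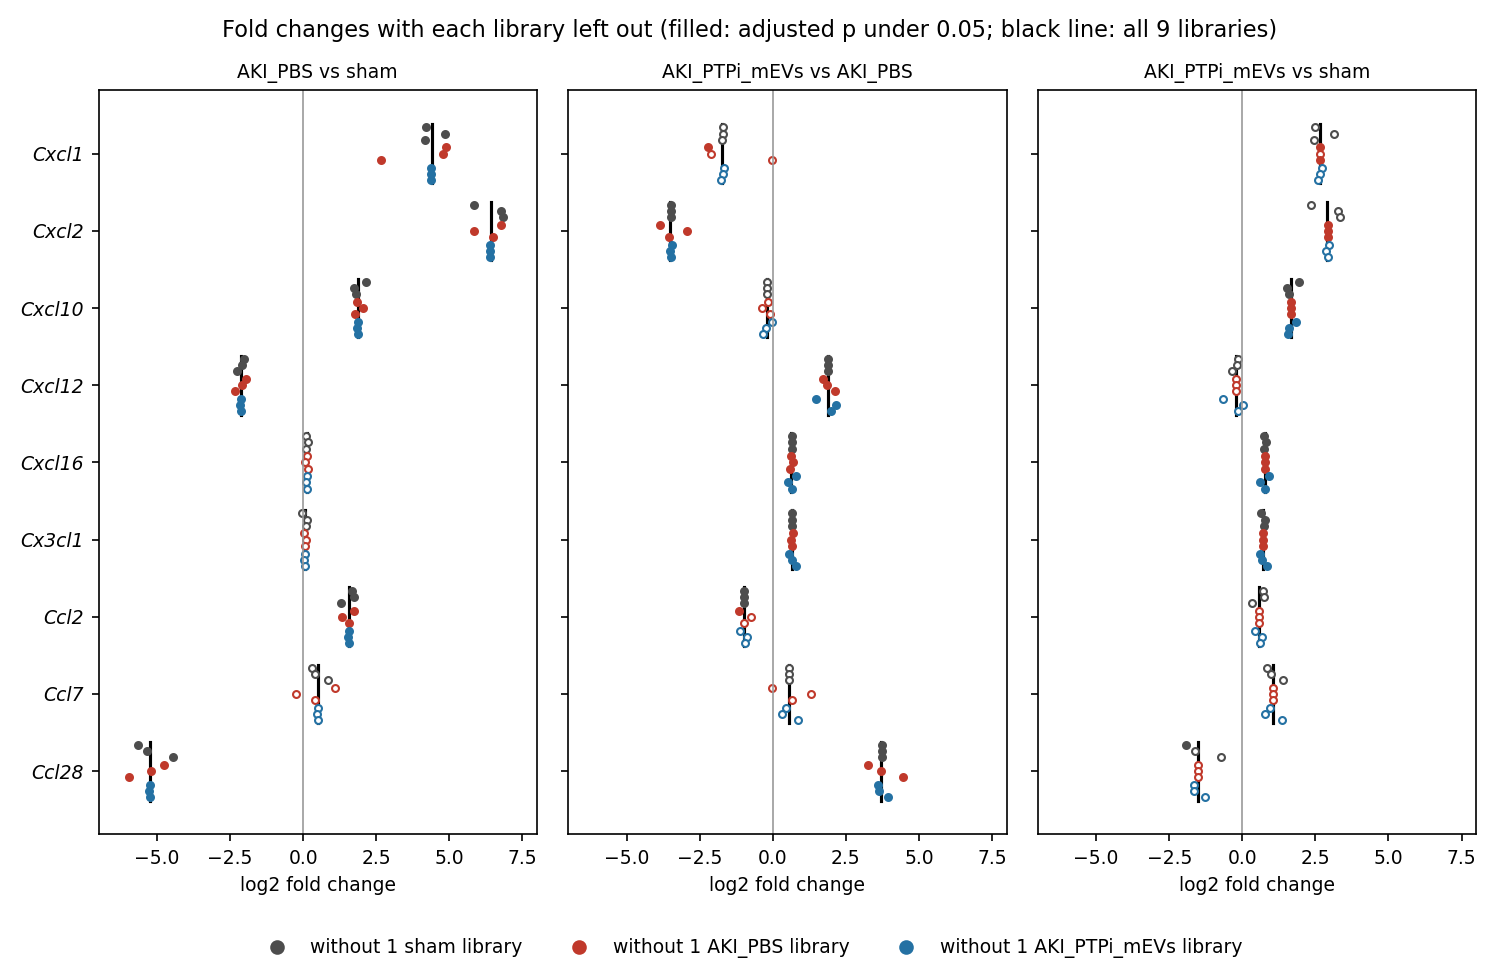
Log2 fold change (x axis) of each chemokine gene with 1 library left out of the fit, coloured by the group of that library, with filled points where the adjusted p of edgeR was under 0.05 and a black line at the value with all 9 libraries. Cxcl1 in AKI_PTPi_mEVs against AKI_PBS ranges from -2.21 to -0.0086, while Cxcl16 and Cx3cl1 stay within 0.51 to 0.79 there.

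Levels were compared between genes as mean CPM per kilobase of exon. In sham kidneys the order was Cxcl16 at 26.4, Cx3cl1 at 23.5 and Cxcl12 at 22.5 CPM per kb, whose libraries overlap, followed by Ccl28 at 3.46 and Cxcl1 at 2.22. Cxcl10 (0.881), Ccl2 (0.735), Ccl7 (0.531) and Cxcl2 (0.0941 CPM per kb) were lowest. In this order the libraries of neighbours separate only between Cxcl12 and Ccl28, Cxcl1 and Cxcl10, and Ccl7 and Cxcl2. On this scale, which divides by all annotated exon bases of a gene, the sham kidney was led by Cxcl12 and the transmembrane chemokines. The order depends on that length. By CPM alone Cxcl12 was highest in sham, at a mean of 184 beside 92.3 for Cx3cl1 and 79.7 for Cxcl16.

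In AKI_PBS the order changed. Cxcl1 came first at 47.2 ± 57.2 CPM per kb, with a spread that overlaps Cxcl16 (28.8), and Cx3cl1 (24.5) followed. Cxcl2, last in sham, stood at 8.50 CPM per kb, above Cxcl12 (5.19), Cxcl10 (3.27), Ccl2 (2.21), Ccl7 (0.758) and Ccl28 (0.0902). By CPM alone Cxcl12 lay above Cxcl2 in AKI_PBS (means of 42.4 and 17.6). Libraries of neighbours separate between Cxcl16 and Cx3cl1, Cx3cl1 and Cxcl2, Cxcl12 and Cxcl10, and Ccl2 and Ccl7. In AKI_PTPi_mEVs the leaders were those of sham, with Cxcl16 at 44.7, Cx3cl1 at 38.6 and Cxcl12 at 19.2 CPM per kb. Cxcl1 came next at 14.2, and Cxcl10 (2.83), Ccl28 (1.20), Ccl2 (1.10), Ccl7 (1.10) and Cxcl2 (0.749) followed. There the libraries separate between Cx3cl1 and Cxcl12, Cxcl1 and Cxcl10, and Cxcl10 and Ccl28.

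Summed over the 9 genes, the level was 76.8, 86.6 and 77.5 CPM per kb in the sham libraries. The sum was 76.0, 100 and 186 in AKI_PBS and 129, 126 and 116 in AKI_PTPi_mEVs, so AKI_PTPi_mEVs lay above sham and AKI_PBS spanned both. Cxcl12 made up 28.1 ± 4.63% of that sum in sham, 4.56 ± 0.805% in AKI_PBS and 15.5 ± 6.70% in AKI_PTPi_mEVs (SD, n = 3 libraries each). Cxcl1 made up 2.71 ± 1.13%, 30.8 ± 26.2% and 11.5 ± 1.63%, and its share in the third AKI_PBS library alone was 60.9%. Sums and shares depend on the division by length. Summed as CPM alone, the level was 377, 407 and 357 in sham and 252, 304 and 472 in AKI_PBS. It was 559, 456 and 444 CPM in AKI_PTPi_mEVs. By CPM alone the first and second AKI_PBS libraries lay below all sham libraries, and AKI_PTPi_mEVs again lay above sham.

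**Figure D4:**
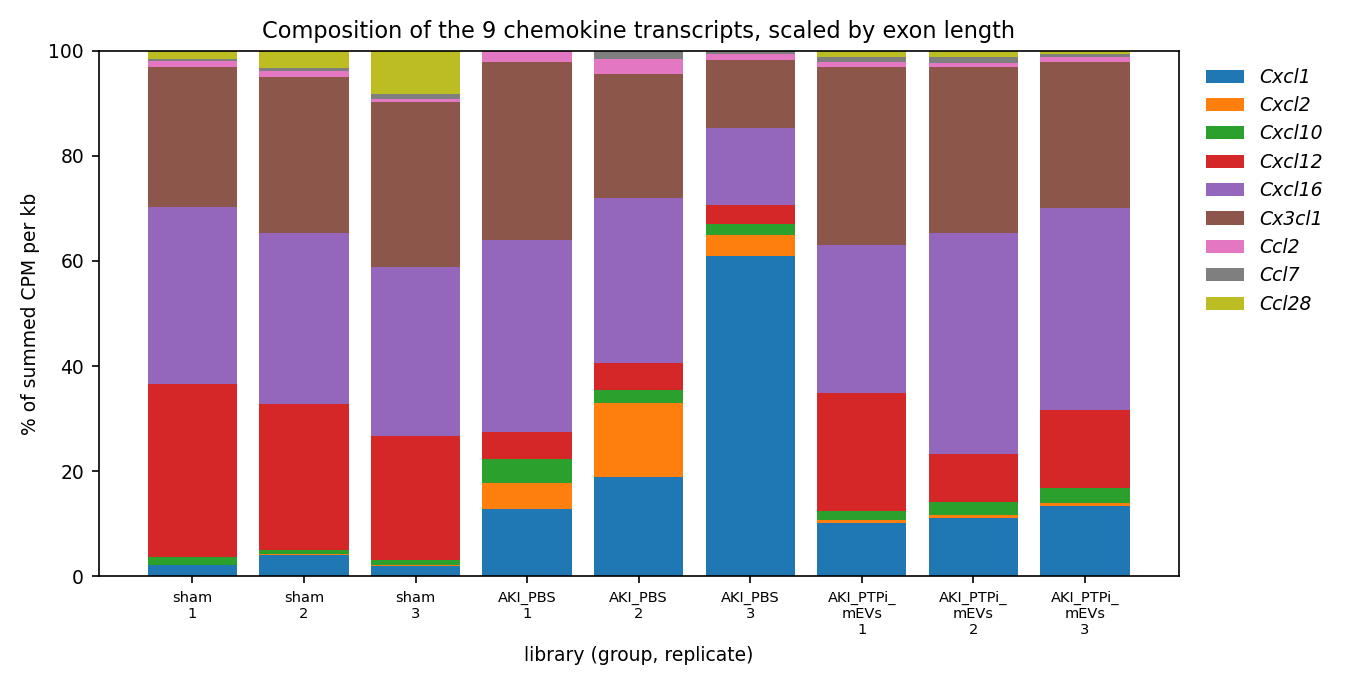
Composition of the summed chemokine level of each library, as the percent of summed CPM per kb (y axis) that each of the 9 genes holds, in the 9 libraries (x axis). Cxcl12 falls from a mean of 28.1% in sham to 4.56% in AKI_PBS, and Cxcl1 holds 60.9% of the third AKI_PBS library.

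The receptors of these ligands were counted in the same libraries. Of 23 listed receptors 11 passed the filter. Cxcr2, Cxcr4, Ackr2 and Ccr9 were among those that did so only through the group where they were highest. For Cxcr2, Cxcr4 and Ackr2 that group was AKI_PBS, so their calls in comparisons with AKI_PBS are not independent support. In AKI_PBS against sham 5 were called higher (Cxcr2, Ccr1, Cxcr4, Ackr2 and, named after its values were seen, Ackr4) and 2 lower (Cx3cr1 and Ccrl2). Without the third AKI_PBS library or the first sham library 3 were called higher, and without the third sham library 2. Ackr2, Ackr4 and Ccrl2 each lost the call with at least 1 library left out. In AKI_PTPi_mEVs against AKI_PBS 1 was called higher (Cx3cr1) and 5 lower (Cxcr2, Cxcr4, Ackr2 and Ackr4 among them), and against sham 1 was called higher (Ccr1) and 0 lower. Of the 11, 7 were thus called in AKI_PBS against sham and 6 between the injured groups, near the 55.7% and 51.1% called over all genes. Without the third AKI_PBS library 2 were called higher in AKI_PTPi_mEVs than in AKI_PBS. Against sham 2 were called higher without the second or the third AKI_PBS library, and 1 lower without the third sham library. The median log2 fold change of the receptors in AKI_PBS against sham was 1.07, beside 0.03 over all genes.

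Cxcr2, the receptor of Cxcl1 and Cxcl2, had counts of 0, 1 and 0 in sham, 17, 39 and 24 in AKI_PBS and 4, 2 and 0 in AKI_PTPi_mEVs, the same order of groups as Cxcl2. With 1 count in all of sham, the pooled scaled ratio of AKI_PBS to sham was 71.3, with a counting interval from 12.4 to 2852. By edgeR it was called higher there (adjusted p = 9.7e-05) and lower in AKI_PTPi_mEVs against AKI_PBS (log2 fold change -3.43 ± 0.63, adjusted p = 0.00067). The latter value was -4.24 without the first AKI_PTPi_mEVs library. Cxcr2 passed the filter only through AKI_PBS, which enters both comparisons, so these p-values are not independent support. Cx3cr1, the receptor of Cx3cl1 on resident macrophages and patrolling monocytes, had counts of 27, 42 and 9 in sham, 2, 2 and 1 in AKI_PBS and 33, 16 and 22 in AKI_PTPi_mEVs. Cx3cr1 fell in AKI_PBS by 4.01 ± 0.63 on the log2 scale (edgeR adjusted p = 0.00018) and stood higher in AKI_PTPi_mEVs than in AKI_PBS (3.95 ± 0.64, adjusted p = 0.00027). It therefore differed between sham and AKI_PBS, where its ligand was not called. Macrophage markers summed to 96.9 to 125 CPM in sham, 68.2 to 113 in AKI_PBS and 68.3 to 85.5 in AKI_PTPi_mEVs, ranges in which AKI_PBS overlapped both others.

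Cxcr4, the signalling receptor of Cxcl12, had counts of 10, 6 and 7 in sham, 18, 12 and 72 in AKI_PBS and 3, 1 and 3 in AKI_PTPi_mEVs. Cxcr4 was called higher in AKI_PBS than in sham (log2 fold change 1.97 ± 0.63, edgeR adjusted p = 0.017), but not without the third AKI_PBS library (0.78, adjusted p = 0.16) nor without sham replicate 2 or 3 (adjusted p = 0.065 and 0.051). Lower in AKI_PTPi_mEVs than in AKI_PBS, its log2 fold change was -3.57 ± 0.77 (edgeR adjusted p = 0.0020), and -2.37 without the third AKI_PBS library (adjusted p = 0.0036). With all 9 libraries, the log2 fold changes of Cxcr4 and Cxcl12 had opposite signs in both comparisons. Cxcr4 passed the filter only through AKI_PBS, so its p-values are not independent support, and its call against sham did not hold throughout. Ackr3, the scavenging receptor of Cxcl12, measured 44.2, 46.0 and 46.7 CPM in sham, 62.8, 34.1 and 123 in AKI_PBS and 79.5, 103 and 88.4 in AKI_PTPi_mEVs. With all 9 libraries Ackr3 was not called in any comparison (edgeR adjusted p = 0.11, 0.48 and 0.081). Without the third AKI_PBS library it was called higher in AKI_PTPi_mEVs than in AKI_PBS (0.90, adjusted p = 0.0043) and than in sham (0.99, adjusted p = 0.0044). Without the second AKI_PBS library it was called higher in AKI_PBS than in sham (1.03, edgeR adjusted p = 0.0038) and in AKI_PTPi_mEVs than in sham (0.99, adjusted p = 0.014).

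Ccr2, the receptor of Ccl2 and Ccl7, stayed at 3.14 ± 0.901 CPM in sham, 3.31 ± 1.36 in AKI_PBS and 2.84 ± 0.591 in AKI_PTPi_mEVs and was not called (edgeR adjusted p = 0.87, 0.60 and 0.81). Ccr1, a receptor of several CC chemokines that include Ccl7, had counts of 5, 6 and 3 in sham, 48, 46 and 83 in AKI_PBS and 26, 44 and 21 in AKI_PTPi_mEVs. From sham to AKI_PBS it rose by a log2 fold change of 3.47 ± 0.45 (edgeR adjusted p = 4.1e-05) and stood above sham in AKI_PTPi_mEVs (2.76 ± 0.47, adjusted p = 0.0030). The receptors of Cxcl10, Cxcl16 and Ccl28 were under the filter. Cxcr3 had counts of 22, 5 and 6, then 1, 1 and 5, then 1, 1 and 2. Cxcr6 had 9, 13 and 8, then 7, 12 and 9, then 10, 6 and 8, and Ccr10 at most 4 counts in a library. Ccr3 had 0 counts in all 9 libraries, and Ackr1, a scavenger of inflammatory chemokines, at most 3.

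**Figure D5:**
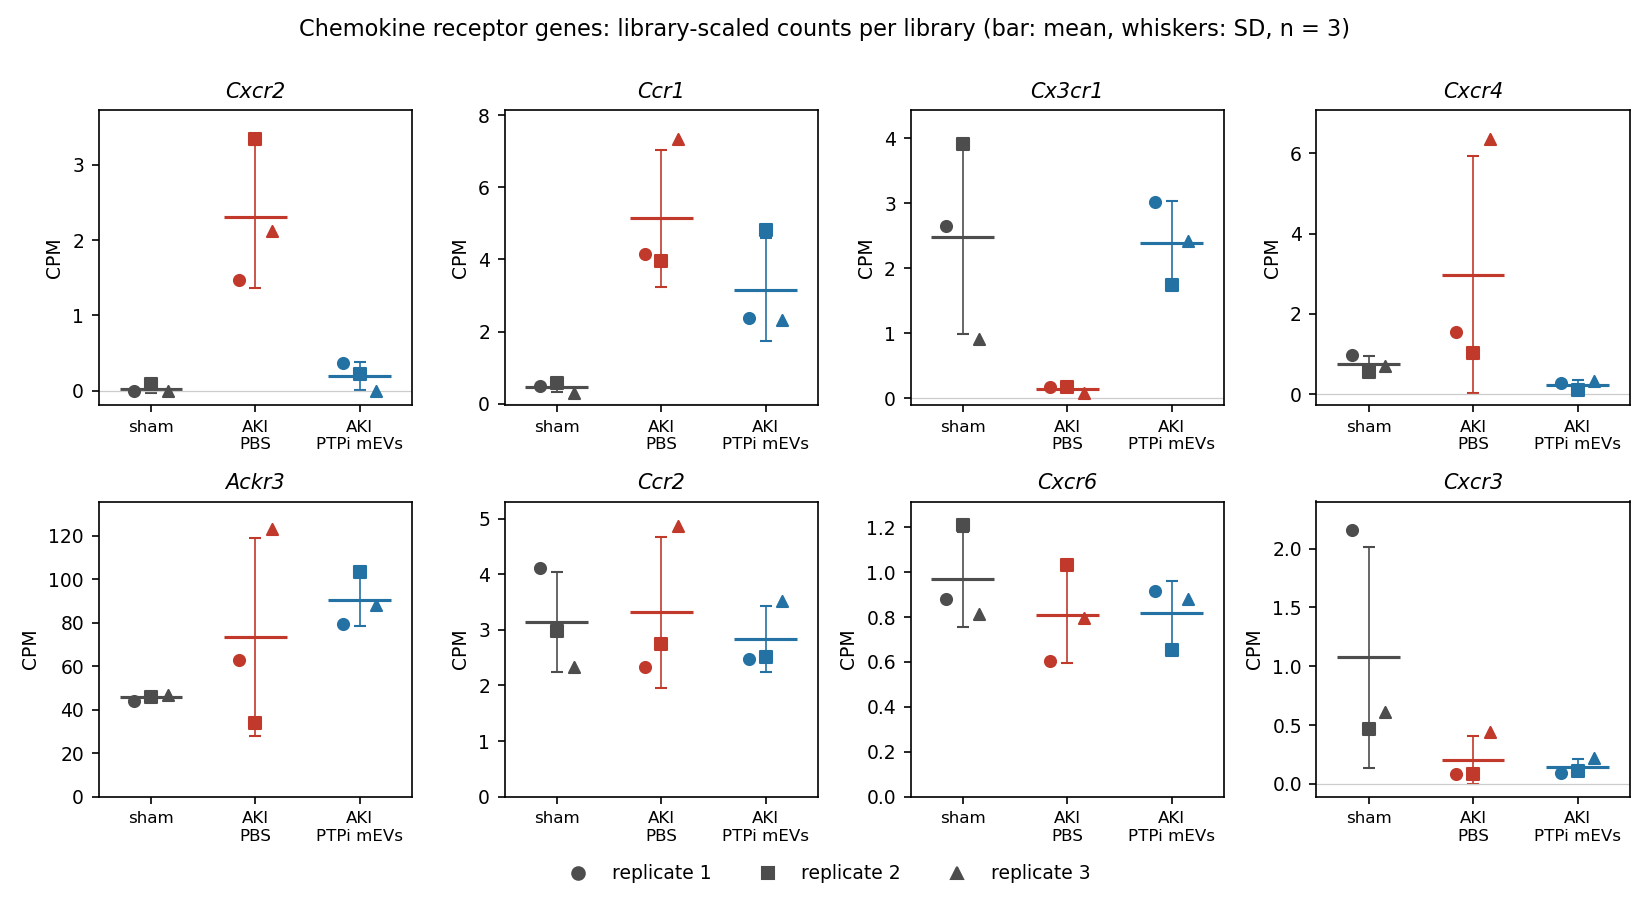
Level in CPM (y axis, a separate linear scale for each gene) of 8 chemokine receptor genes in the 3 groups (x axis), with points for libraries, bars for means and whiskers for the SD of 3 libraries. Cxcr2 is high only in AKI_PBS (17 to 39 counts a library) and Cx3cr1 is low only there (1 or 2 counts), while Ccr2 and Cxcr6 overlap between all groups.

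Of 28 other chemokine ligands 12 passed the filter, Cxcl5, Pf4 and Ccl20 only through the group where they were highest. In AKI_PBS against sham 6 were called higher and 2 lower, in AKI_PTPi_mEVs against AKI_PBS 1 higher and 5 lower, and in AKI_PTPi_mEVs against sham 2 higher and 2 lower (1 higher without any 1 of the sham libraries or the first or second AKI_PTPi_mEVs library, and 0 lower without the first sham or the second AKI_PTPi_mEVs library). Over all genes 55.7%, 51.1% and 13.2% were called, so these counts stand near the background in the comparison of the injured groups. In AKI_PBS against sham 4 were called lower without the first AKI_PBS library, and likewise without the first or the third AKI_PTPi_mEVs library. Without the second AKI_PBS or the first AKI_PTPi_mEVs library 2 were called higher between the injured groups. Ccl9, a myeloid chemokine that binds Ccr1, rose in AKI_PBS (log2 fold change 2.56 ± 0.41, edgeR adjusted p = 0.00020), as did the platelet chemokine Ppbp (2.98 ± 0.68, adjusted p = 0.0028). Ccl21a, which guides cells to lymphatic vessels, fell (-1.63 ± 0.38, edgeR adjusted p = 0.0029). Against AKI_PBS, the AKI_PTPi_mEVs group had less Cxcl13, a B cell chemokine (-2.44 ± 0.41, edgeR adjusted p = 0.00036), Ccl6 (-1.84 ± 0.36, adjusted p = 0.0011), Ppbp (-3.45 ± 0.72, adjusted p = 0.0019) and platelet factor Pf4 (-2.58 ± 0.69, adjusted p = 0.0074). The second AKI_PBS library held most Ppbp (16.5 CPM beside 5.79 and 1.77). Without it, the log2 fold changes of Ppbp were 1.90 against sham and -2.36 between the injured groups. Pf4 passed the filter only through AKI_PBS, so its p-value is not independent support. The 5 red blood cell markers summed to 91.6 to 123 CPM in sham, 113 to 256 in AKI_PBS and 20.6 to 48.1 in AKI_PTPi_mEVs. Their sum was highest in the second AKI_PBS library. The part of blood content in the values of Ppbp, Pf4 and other blood cell genes was not tested. Ccl20, the ligand of Ccr6, was under 2 counts in every sham library and had 9, 35 and 9 counts in AKI_PBS and 8, 35 and 40 in AKI_PTPi_mEVs.

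Genes that switch chemokines on or end their transcripts were listed too. Of 17 listed 13 passed the filter, with 9 called higher and 1 lower in AKI_PBS against sham, 1 higher and 7 lower in AKI_PTPi_mEVs against AKI_PBS, and 3 higher and 0 lower against sham. Over all genes 55.7%, 51.1% and 13.2% were called in these comparisons, so 8 of 13 in the middle one lies near the background. Rela, the p65 subunit of NF-kB, measured 41.2, 43.8 and 43.7 CPM in sham, 99.1, 148 and 150 in AKI_PBS and 49.4, 52.0 and 46.1 in AKI_PTPi_mEVs. Its log2 fold change was 1.62 ± 0.16 from sham to AKI_PBS (edgeR adjusted p = 4.7e-06) and -1.43 ± 0.16 from AKI_PBS to AKI_PTPi_mEVs (adjusted p = 1.8e-05). Nfkbiz, a nuclear cofactor of NF-kB, rose by 3.28 ± 0.37 (edgeR adjusted p = 2.4e-05; 2.69 without the third AKI_PBS library) and came down in AKI_PTPi_mEVs against AKI_PBS (-1.92 ± 0.34, adjusted p = 0.00080; -1.32 without that library). Nfkbia, the inhibitor that NF-kB itself induces, was lower there too (-1.30 ± 0.17, edgeR adjusted p = 5.6e-05). Of the 3 genes higher in AKI_PTPi_mEVs than in sham (Myd88, Nfkbiz and Relb), each lost its call with at least 1 library left out, and 0 were called without the second AKI_PTPi_mEVs library.

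Genes that shed, trim or display chemokines formed a further list. Of 8 listed 7 passed the filter, with 3 called higher and 2 lower in AKI_PBS against sham, 2 higher and 3 lower in AKI_PTPi_mEVs against AKI_PBS, and 1 higher against sham. With 55.7%, 51.1% and 13.2% of all genes called, nothing is read from these counts. Without the first AKI_PTPi_mEVs library 5 were called lower than in AKI_PBS and 1 lower than in sham. Adam17, a protease that sheds Cx3cl1 and Cxcl16, measured 33.7, 37.0 and 41.7 CPM in sham, 27.2, 25.9 and 28.3 in AKI_PBS and 45.2, 48.4 and 48.5 in AKI_PTPi_mEVs. From sham to AKI_PBS it fell (log2 fold change -0.46 ± 0.13, edgeR adjusted p = 0.0093), and it was higher in AKI_PTPi_mEVs than in AKI_PBS (0.80 ± 0.13, adjusted p = 0.00031). Dpp4, which trims and inactivates Cxcl10 and Cxcl12, fell in AKI_PBS (-1.01 ± 0.15, edgeR adjusted p = 0.00012) and was higher in AKI_PTPi_mEVs than in AKI_PBS (1.18 ± 0.15, adjusted p = 4.8e-05). The heparan sulfate carrier Sdc1 rose in AKI_PBS (2.24 ± 0.22, edgeR adjusted p = 5.4e-06) and remained above sham in AKI_PTPi_mEVs (1.11 ± 0.22, adjusted p = 0.0068). Ndst1, an enzyme of heparan sulfate synthesis, rose in AKI_PBS (0.97 ± 0.14, edgeR adjusted p = 6.7e-05) and came down in AKI_PTPi_mEVs against AKI_PBS (-0.89 ± 0.13, adjusted p = 0.00016).

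The genes most like the largest riser and the largest faller were found among 11333 well-expressed genes by Pearson's r of log2 CPM over the 9 libraries, as a description. For Cxcl2 they were Tfe3 (0.997), Ptk2b (0.991), Zfp217 (0.990), Snrnp70 (0.989) and Lypla2 (0.988), all with smaller changes than Cxcl2, such as a log2 fold change of 0.94 for Tfe3 in AKI_PBS against sham. For Ccl28 they were Lztfl1 (0.984), Tmem45b (0.983), Ces2b (0.979), Slc22a2 (0.978) and Serpinf2 (0.978), of which Ces2b had the largest fall in AKI_PBS (log2 fold change -2.66). The 9 points share their group structure, library preparation and depth.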

How the data were processed

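RNA from mouse kidney was sequenced in 9 libraries, 3 a group. Per the labels' protocols, 100 ng of phenol-chloroform extracted total RNA entered a Tn5-based kit. The deposited values are raw counts per gene, made with STAR and HTSeq per the submitters' processing notes. Those notes name build GRCh38.p14, a human build, although all 56923 identifiers are mouse, so no coordinates were taken from the files. For strand setting and filters, the answer is not given in the sources used here. Groups came from the labels. In the vesicle group, replicate 2 has a title with another spelling, and its treatment label was used.

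Symbols came from the supplied gene table (52073 identifiers matched, 4850 not). Library totals were 9467851 to 11389479, and 0 value columns stayed unmapped. No libraries of a group were duplicates. edgeR 4.0.16 in R 4.3.3 fitted group means to all 9 libraries (filterByExpr, TMM factors, glmQLFit robust, 6 residual degrees of freedom), and glmQLFTest p-values were Benjamini-Hochberg adjusted over 17036 genes and called under 0.05. The fit was run on simulated counts in which far fewer genes changed than were called here. That run does not measure the error rates of the fit on these data. Ratios of pooled counts have 95% exact intervals. Reads carry no molecular identifiers. Exon lengths and overlaps came from GENCODE M21, promoters from RefSeq.

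Members and lists were chosen with earlier results of these data known. Named were all 9 members, receptors of the members, up to 4 genes per list with the smallest adjusted p in a comparison, and the 5 genes most like the largest riser and faller. Some listed genes are not reported here by name. A test planned for members under the filter was not needed, since all 9 passed. Alternatives were relative log expression factors, library totals, DESeq2 1.42.0, voom of limma 3.58.1, no filter and a stricter one (20 counts in 3 libraries), leaving out each library, fitting 2 groups alone, a replicate block, and requiring a log2 fold change of 1. Leaving out libraries for the other lists was added after seeing the data. Figures used matplotlib 3.10.9 in Python 3.11.15.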

Additional observations from a re-analysis of the deposited data

How the results depend on the processing

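Over 454 alternative values of the 9 genes, 428 kept direction and side of the threshold, 14 lost a call, 7 gained one and 5 changed sign. None of the values that changed sign was called, and 4 of the 5 came with 1 library left out. In AKI_PBS against sham Cx3cl1 ranged from -0.040 (without sham replicate 1) to 0.12 and Ccl7 from -0.26 (without AKI_PBS replicate 2) to 1.09, and Ccl7 was -0.44 with limma voom. In AKI_PTPi_mEVs against AKI_PBS Ccl7 ranged from -0.031 (without AKI_PBS replicate 1) to 1.31, and against sham Cxcl12 from -0.65 to 0.022 (without AKI_PTPi_mEVs replicate 2). A log2 fold change of at least 1 left 5227, 4570 and 987 called genes in AKI_PBS against sham, AKI_PTPi_mEVs against AKI_PBS and AKI_PTPi_mEVs against sham, and 3 and 2 of the 9 chemokine genes in the last 2. With each library left out, called genes ranged from 8028 to 9650, 7337 to 8743 and 878 to 3395 of all genes, and 6 to 6, 5 to 7 and 3 to 5 of the 9 genes. In AKI_PTPi_mEVs against sham, all called genes were 2252, and 1184 without the first sham library, 938 without the second, 3395 without the third AKI_PBS library, and 1487 and 878 without the first and second AKI_PTPi_mEVs libraries. The cause was not tested.

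The replicate numbers did not pair the libraries (r of deviations from group means -0.19 to 0.11 in 9 same-number pairs and -0.17 to 0.15 in 18 others). The replicate block gave 9213, 8491 and 2050 called genes and changed no call of the 9 genes. Scaling by library totals moved the median log2 fold change of all genes in AKI_PTPi_mEVs against AKI_PBS from -0.03 to -0.13. Ccl7 was not tested under the stricter filter. Counts under about 10 a library (Ccl7, Cxcr2 in sham, Cx3cr1 and Ccl28 in AKI_PBS) limit what can be detected.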
